A study of Mus musculus with 48 samples.

Results

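Transcript levels of 9 genes of the myostatin and activin pathway were followed in 4 neonatal mouse muscles: the ligands Mstn, Gdf11 and Inhba, the secreted inhibitors Fst and Fstl3, the receptors Acvr1b, Acvr2a and Acvr2b, and the intracellular inhibitor Smad7. The genes were chosen by symbol, 9 of 17490 in the deposited gene tables. All 9 were in the quadriceps, tibialis anterior and gastrocnemius tables and 8 were in the diaphragm table, from which the authors left out Inhba for low counts. The mice were C57BL/6 at postnatal day 0 and carried either MyH3delta/delta (KO) or MyH3+/+ (WT), where Myh3 is the gene of embryonic myosin heavy chain, a myosin of developing fibres. Frozen tissue gave poly(A) RNA from 4 muscles: the quadriceps is called Quad, the tibialis anterior TA, the gastrocnemius Gastroc and the diaphragm Dia. Each of the 8 groups held 6 libraries, 48 altogether. The labels do not say how the delta allele was made, in which cells it acts, or which libraries came from the same animal.

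Myostatin is a secreted factor of the TGF-beta family that limits the size of skeletal muscle, and GDF11 is its closest relative. Both, like the activins, bind a type II receptor (ACVR2A or ACVR2B), which then activates a type I receptor such as ALK4, the product of Acvr1b, and the receptors phosphorylate SMAD2 and SMAD3. Follistatin (Fst) and its relative FSTL3 bind these ligands outside the cell and block them, while SMAD7 acts inside the cell on the activated receptors and is itself induced by the pathway. In mice, loss of Mstn or excess follistatin gives enlarged muscles.

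Total counts ran from 11.9 M to 24.3 M per library (median 16.1 M). A library is given here as its genotype and the column, 0 to 5, that holds its counts, and the labels tie no column to a replicate or animal. P-values therefore measure the spread between these libraries, which may be partly technical. The libraries labelled KO were not low in Myh3 counts: 3786 to 5389 CPM (counts scaled to a common library total) in KO Quad against 3928 to 5507 in WT Quad, 3137 to 4008 in KO TA against 3748 to 5483 in WT TA, 4069 to 5275 in KO Gastroc against 3595 to 4802 in WT Gastroc, and 1007 to 2129 in KO Dia against 769 to 1598 in WT Dia. Counts are per gene and the deleted part is not stated, so this checks no genotype. KO columns 0 and 1 held the most liver transcripts in each muscle, though in Dia column 0 was not far above the highest WT library. Summed over 6 measured liver genes of 7, they held 26.6 to 77.6 CPM in the limb muscles, against 0.311 to 12.4 CPM in the other KO and 0.923 to 21.1 CPM in the WT limb libraries. In Dia all libraries carried such transcripts (7 of 7 genes), 5510 and 8810 CPM in KO columns 0 and 1, 48.7 to 3270 CPM in the other KO and 316 to 4890 CPM in the WT libraries. Muscle fibre genes (6 to 8 measured of 8, none at 0) summed to 57700 to 97200 CPM in KO libraries and 59600 to 90800 CPM in WT libraries. Y-linked transcripts were present in KO columns 2 and 3 of all 4 muscles, and in WT column 0 of Quad but WT column 1 of TA, Gastroc and Dia. A WT column number therefore does not mark the same animal in all muscles. In KO, libraries of the same column number varied together: the deviations of all genes from the group means had Pearson r = 0.376 to 0.752 between 2 muscles (36 pairs of libraries, no test). In WT the same correlations ran from -0.413 to 0.662. Between libraries of different column numbers the highest r was 0.726 in WT (Quad column 4 and TA column 5) and 0.628 in KO. WT libraries thus also varied together between muscles, but not always by column number.

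Mstn was the most abundant of the 9 transcripts per unit of exon length, averaging 22.5 CPM per exonic kilobase over the 48 libraries, and Inhba, which encodes the activin A subunit, the least, at 0.232 over the 36 limb libraries. Between them came Acvr2a (12.7), Fst (9.48), Acvr1b (6.83), Smad7 (3.70), Fstl3 (2.02), Acvr2b (1.15) and Gdf11 (1.05), all in CPM per exonic kilobase. Mstn thus stood far above its close relative Gdf11. The ratio of the level of Mstn to that of Gdf11 within a library had a median of 22.6 and ran from 6.45 to 98.0. Acvr2a likewise exceeded the related type II receptor Acvr2b in all 48 libraries, with a median ratio of 10.6 (5.92 to 23.9). These are ratios of RNA levels and say nothing of protein.

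**Figure D1:**
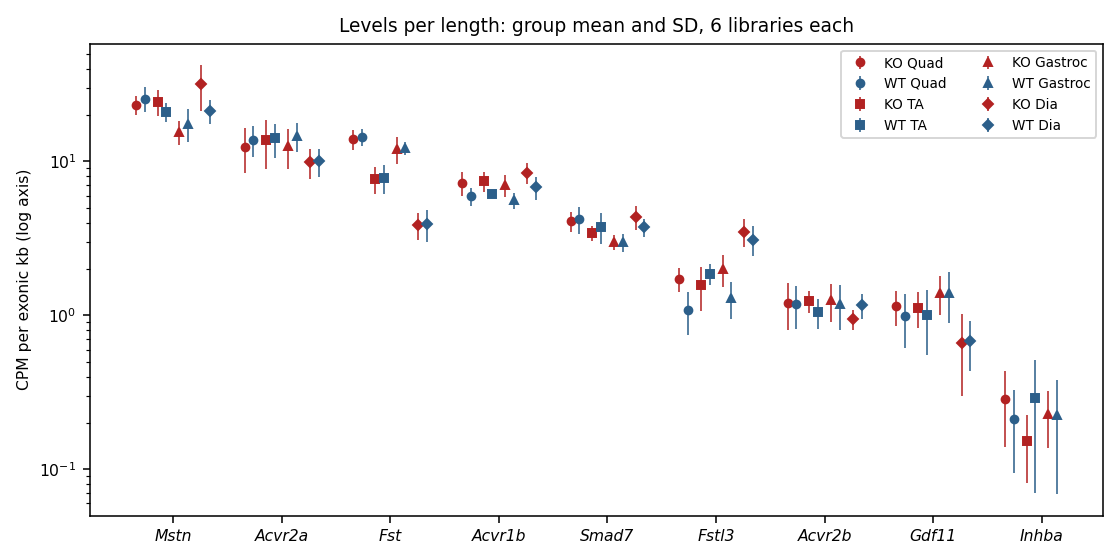
Mean level of each gene per exonic kilobase (log axis) in each genotype and muscle, with bars of 1 SD over 6 libraries, KO left of WT. Mstn lies highest and Inhba, absent from the Dia table, lowest. Fst is lowest and Fstl3 highest in Dia.

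In single muscles no member passed the comparison of KO with WT. Each muscle was tested with edgeR's quasi-likelihood F test over all genes, with Benjamini-Hochberg adjustment and a threshold of 0.05. Inhba, with 2 to 21 counts per limb library, was removed by the low-count filter, so 8 of the 9 members were tested. Of those 8, 0 passed in Quad, where 0.0% of all genes passed, 0 in TA (0.0973% of all genes), 0 in Gastroc (0.157%) and 0 in Dia (0.0069%). DESeq2 also called 0 members in each muscle. At an unadjusted p under 0.05 edgeR had 2 members in Quad, 1 in TA, 2 in Gastroc and 2 in Dia. Among all genes tested it had 1020 of 14710, 1091 of 14383, 979 of 14611 and 604 of 14487. The median log2 change of the 8 members was -0.00 in Quad, 0.06 in TA, 0.00 in Gastroc and 0.08 in Dia, beside medians of 0.01 over all genes in each muscle. In bulk muscle, fewer cells of a type and less RNA per cell cannot be told apart.

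Taken over the 4 muscles, Acvr1b and Fstl3 passed as higher in KO, 2 calls that ended when each column number was counted once. In a joint fit of the 48 libraries with a mean for each genotype and muscle, the average change of Acvr1b was 0.30 ± 0.06 (log2, SE; adjusted p = 0.00083, edgeR) and that of Fstl3 0.32 ± 0.10 (adjusted p = 0.0453). These 2 of 8 members rose, where 4.71% of all genes were called higher, and 0 of 8 fell, where 2.45% were called lower (7.15% in either direction). The other 6 had changes from -0.11 (Acvr2a) to 0.12 (Mstn), with adjusted p from 0.430 to 0.976. Libraries of different muscles varied together, by column number in KO and often across numbers in WT. The 48 libraries are therefore not independent, and these p-values are too small. When the counts of same-numbered columns were summed over the muscles, leaving 6 against 6, 0 members passed in edgeR, 2 had an unadjusted p under 0.05 (1069 of all genes) and 14 genes passed in all. Acvr1b then had 0.31 ± 0.10 (adjusted p = 0.350) and Fstl3 0.29 ± 0.13 (adjusted p = 0.668). This sum treats a column number as 1 animal, which does not hold for WT.

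Whether the genotype effect differed between muscles was tested by a joint F test of the 4 differences in edgeR. Of the 8 members 0 passed in edgeR, where 0.0133% of all genes passed, and 0 of the 5 to which DESeq2 gave an adjusted p passed in DESeq2. At an unadjusted p under 0.05 edgeR had 2 members among 252 of the 15090 genes tested, Mstn and Fstl3, both with adjusted p = 1. Libraries of different muscles varied together, and this test took them as independent. For differences between muscles its p-values may therefore be too large, and a miss does not show equal effects.

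**Figure D2:**
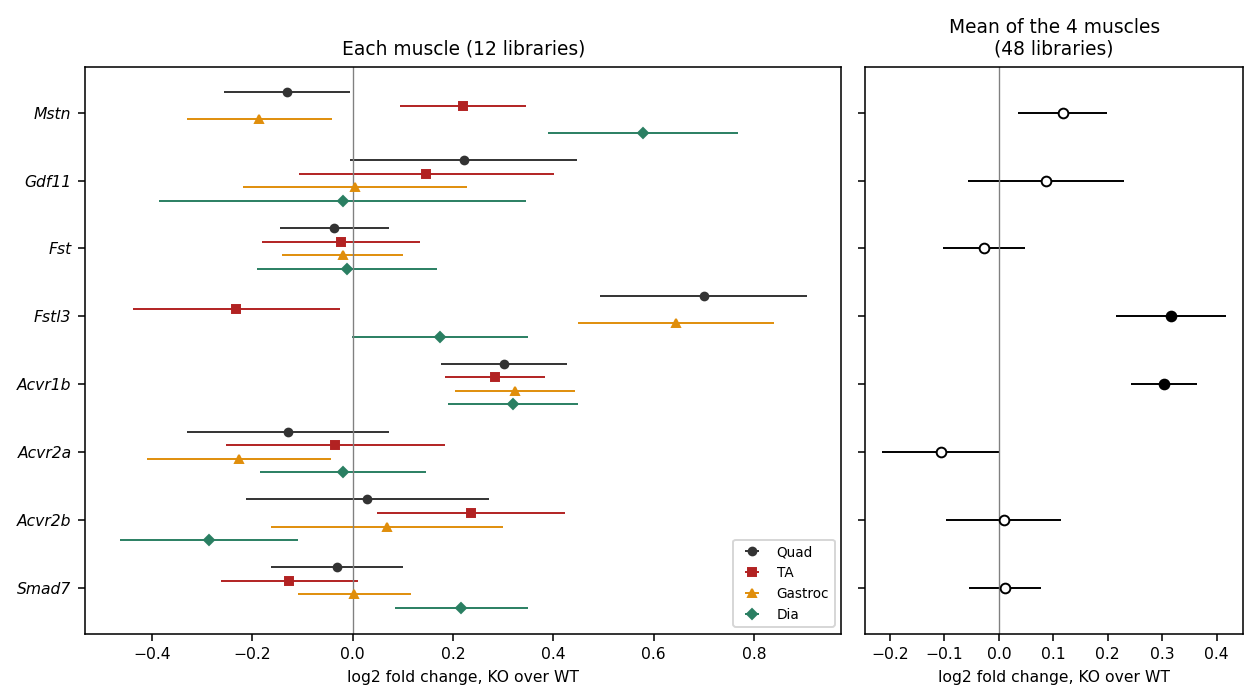
Log2 fold change of KO over WT with bars of 1 SE for the 8 tested members, in each muscle (left, 12 libraries per fit) and averaged over the muscles (right, 48 libraries). Filled points on the right are the members with an adjusted p under 0.05, Fstl3 and Acvr1b; Acvr1b lies between 0.28 and 0.32 in all muscles, while Fstl3 is high in Quad and Gastroc and below 0 in TA.

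Mstn (chromosome 1, 53061663 to 53068079, plus strand, mm10) did not pass the genotype test in any muscle, and its largest estimate was in Dia. In KO Dia it ran from 58.0 to 130 CPM (median 75.7), against 46.0 to 72.1 CPM in WT Dia (median 54.8). All 6 KO libraries lay above the WT median, and 3 lay above the highest WT library. The difference was 0.58 ± 0.19 (log2, SE; unadjusted p = 0.00865, adjusted p = 0.888, edgeR). The KO libraries with the highest levels were columns 0 and 1, at 107 and 130 CPM, the columns with 5510 and 8810 CPM of liver transcripts. The summed muscle fibre genes were at 86900, 97200, 73600, 57700, 79400 and 76500 CPM in KO Dia columns 0 to 5, the same order of libraries as for Mstn (107, 130, 62.5, 58.0, 81.2 and 70.3 CPM). Erythroid genes (6 of 6 measured) summed to 746 and 605 CPM in columns 0 and 1, against 364 to 394 in the other KO Dia and 382 to 582 in the WT Dia libraries. Their part in the level of Mstn was not tested. WT column 1, with 4890 CPM of liver transcripts, had 50.2 CPM of Mstn. Without KO columns 0 and 1 the difference was 0.27 (adjusted p = 0.380). In the limb KO columns 0 and 1 were not both highest. KO column 1 had the highest KO level in Quad (75.9 CPM) and Gastroc (54.6), and had 81.3 CPM in TA, where column 3 had 81.6. KO column 0 had 62.8, 59.6 and 38.0 CPM in Quad, TA and Gastroc. Mstn ran from 51.9 to 75.9 CPM in KO Quad (median 62.1) against 47.4 to 81.7 in WT Quad (69.2). It ran from 50.9 to 81.6 in KO TA (61.4) against 45.0 to 66.5 in WT TA (57.5). In Gastroc it ran from 35.0 to 54.6 in KO (39.7) against 34.6 to 66.7 in WT (47.1). The groups overlapped in each muscle. The log2 changes were -0.13 ± 0.13 in Quad, 0.22 ± 0.13 in TA and -0.19 ± 0.14 in Gastroc (adjusted p = 0.968, 0.767 and 0.929).

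Gdf11 (chromosome 10, 128882295 to 128891718, minus strand), best known for patterning the vertebral column, was scarce in all muscles. It ran from 3.20 to 6.45 CPM in KO Quad (median 4.59) against 3.16 to 7.07 in WT Quad (3.31), and from 2.78 to 6.03 in KO TA (4.68) against 2.69 to 7.71 in WT TA (3.46). In Gastroc it ran from 4.02 to 8.50 CPM in KO (median 5.26) and from 3.43 to 9.33 in WT (5.11), and in Dia from 1.09 to 4.61 in KO (2.41) and from 1.32 to 4.41 in WT (2.63). KO and WT overlapped nearly fully in each muscle, with log2 changes of 0.22 ± 0.23, 0.15 ± 0.25, 0.00 ± 0.22 and -0.02 ± 0.37 in Quad, TA, Gastroc and Dia. It had 13 to 164 counts per library. Inhba was near the limit of detection, at 0.253 to 1.05 CPM in KO Quad and 0.227 to 0.839 in WT Quad, 0.103 to 0.475 in KO TA and 0.222 to 1.39 in WT TA, and 0.236 to 0.673 in KO Gastroc and 0.181 to 0.965 in WT Gastroc. A difference in Inhba was not detectable at this depth. Without the low-count filter its changes were 0.43, -0.95 and 0.09 in Quad, TA and Gastroc (adjusted p = 0.959, 0.710 and 0.993).

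The sequences before the starts of Mstn and Gdf11 are shown because the products of these genes use the same receptors while their transcripts differ so widely in level. They are the 250 bases upstream of the RefSeq start (RefSeq, GRCm38.p6, the build of the files), 5′ to 3′ along the gene, with the TATA box letters TATAAA, the letters CCAAT and the letters CAGAC in capitals wherever either strand holds them.
Mstn (chr1:53061390-53061639, plus strand): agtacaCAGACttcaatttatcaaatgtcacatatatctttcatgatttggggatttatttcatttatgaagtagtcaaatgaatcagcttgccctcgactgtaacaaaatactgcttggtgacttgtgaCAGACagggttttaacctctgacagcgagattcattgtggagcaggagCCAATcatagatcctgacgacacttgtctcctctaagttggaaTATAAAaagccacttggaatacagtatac
Gdf11 (chr10:128891719-128891968, minus strand): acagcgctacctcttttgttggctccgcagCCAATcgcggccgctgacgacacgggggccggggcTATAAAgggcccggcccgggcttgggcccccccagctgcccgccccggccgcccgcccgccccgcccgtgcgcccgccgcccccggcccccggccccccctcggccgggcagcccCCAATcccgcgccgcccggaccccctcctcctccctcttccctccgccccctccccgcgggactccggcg
Mstn has TATAAA at position -29 from the start, CCAAT at -72 and CAGAC, the core letters to which SMAD3 and SMAD4 bind, at -244 and -120. Gdf11 has TATAAA at -185, CCAAT at -220 and -70, and no CAGAC. The longest run of bases shared by both windows is ctgacgacac, 10 bases long, at -59 in Mstn and -207 in Gdf11. In both it lies 8 bases after a CCAAT and before the TATAAA. It is found on either strand in 12 of 32851 RefSeq promoter windows of 250 bases (0.0365%). Of the same windows 12.4% hold TATAAA, 33.8% CCAAT and 42.2% CAGAC. The letters CANNTG, the E box read by myogenic factors such as MyoD, occur 4 times in Mstn and 1 time in Gdf11, overlap none of the capitals there, and are in 66.2% of all windows. The Mstn window is 38.4% G and C and the Gdf11 window 81.2%, beside a median of 52.4%. Of the 9 members, 7 matched in this table, and these letters are a description, not sites shown to be used.

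Fst (chromosome 13, 114452262 to 114458730, minus strand), which encodes follistatin, did not pass the genotype test in any muscle. It ran from 27.2 to 39.6 CPM in KO Quad (median 31.3) against 29.3 to 40.5 in WT Quad (32.2), and from 15.3 to 23.7 in KO TA (15.9) against 12.7 to 22.0 in WT TA (19.8). In Gastroc it ran from 22.0 to 36.3 CPM in KO (median 26.7) and from 25.0 to 32.5 in WT (28.4), and in Dia from 5.60 to 11.1 in KO (9.35) and from 6.68 to 11.8 in WT (8.72). The groups overlapped in each muscle, and the log2 changes lay between -0.04 and -0.01. Their SE ran from 0.11 in Quad to 0.18 in Dia, and the 95% interval of the average change over the muscles was -0.17 to 0.12 (adjusted p = 0.881). That interval is from the joint fit of 48 libraries, which are not independent, and is too narrow. With the columns summed, 6 against 6, the SE of Fst was 0.10 in place of 0.07.

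Fstl3 (chromosome 10, 79777272 to 79782630, plus strand), a follistatin relative that also binds activins and myostatin, had its largest differences in Quad and Gastroc. In Quad it ran from 3.49 to 5.43 CPM in KO (median 4.13) against 1.38 to 3.55 in WT (2.67), with 5 of 6 KO libraries above the highest WT library. In Gastroc it ran from 3.40 to 6.42 CPM in KO (median 4.79) against 2.41 to 4.74 in WT (3.06), with 3 of 6 above. The log2 changes were 0.70 ± 0.21 in Quad and 0.64 ± 0.20 in Gastroc (unadjusted p = 0.00404 and 0.00459, adjusted p = 0.391 and 0.375). In TA the order was the other way, 2.22 to 5.07 CPM in KO (median 4.35) and 3.43 to 5.32 in WT (4.66), a change of -0.23 ± 0.21. There KO columns 0 and 1 held 2.22 and 2.31 CPM, below all WT libraries, and without them the change was 0.02. In Dia it ran from 6.71 to 11.7 CPM in KO (median 8.06) and from 4.85 to 9.02 in WT (8.30), a change of 0.17 ± 0.18. The average over the muscles passed in 4 of 12 fits that left out a column of every muscle. It missed 0.05 without KO column 2, 3 or 4 or WT column 0, 1, 3, 4 or 5 (adjusted p = 0.0130 to 0.172 over the 12), and in the limb muscles alone it was 0.36 (adjusted p = 0.0619). Without KO columns 0 and 1 it was 0.46 (adjusted p = 0.000745), in a fit where 4575 of all genes passed, against 1079 with all columns.

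Acvr1b (chromosome 15, 101174104 to 101213678, plus strand), the type I receptor ALK4, had about the same positive difference in each muscle. In KO it ran from 24.9 to 40.2 CPM in Quad (median 32.1), 26.6 to 38.3 in TA (32.1), 23.4 to 38.3 in Gastroc (31.3) and 32.9 to 47.9 in Dia (35.0). In WT it ran from 19.5 to 30.6 CPM in Quad (median 26.5), 24.1 to 29.0 in TA (27.3), 21 to 27.1 in Gastroc (25.5) and 22.6 to 36.6 in Dia (30.2). In Quad, TA and Gastroc 5 of 6 KO libraries lay above the WT median and 4 above the highest WT library; in Dia 6 and 2 did. The log2 changes were 0.30 ± 0.13 in Quad, 0.28 ± 0.10 in TA, 0.32 ± 0.12 in Gastroc and 0.32 ± 0.13 in Dia (unadjusted p = 0.0295, 0.0118, 0.0156 and 0.0269, adjusted p = 0.645, 0.453, 0.564 and 0.9996). None passed alone. The average over the muscles passed in all 12 fits that left out a column of every muscle, with changes from 0.23 to 0.36 (adjusted p = 7.52e-05 to 0.0113). KO column 3 gave the highest level in each muscle. In each limb muscle KO columns 0 and 1 gave the 2 lowest KO levels, 23.4 to 28.9 CPM. Without these 2 columns the average was 0.40 (adjusted p = 3.52e-06) and TA alone passed (0.39, adjusted p = 0.0469). Many more of all genes passed then too: 4575 for the average and 219 in TA, against 1079 and 14 with all columns.

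Other transcripts moved across the same libraries. The summed immediate early genes (10 of 10 measured, none at 0) were at 378 to 836 CPM in KO Quad and 248 to 471 in WT Quad, 312 to 602 in KO TA and 251 to 381 in WT TA, 251 to 536 in KO Gastroc and 193 to 258 in WT Gastroc, and 392 to 739 in KO Dia and 253 to 558 in WT Dia. The muscle progenitor markers (4 of 4 measured, none at 0) summed to 172, 176, 175 and 70.7 CPM in KO column 3 of Quad, TA, Gastroc and Dia, near or at the top of their groups. Their KO ranges were 97.1 to 172 CPM in Quad, 96.5 to 176 in TA, 114 to 175 in Gastroc and 47.7 to 79.8 in Dia. Their WT ranges were 102 to 121 CPM in Quad, 110 to 131 in TA, 114 to 138 in Gastroc and 44.7 to 74.9 in Dia. Endothelial markers (6 of 6 measured, none at 0) were at 623 to 691 CPM in KO Quad and 689 to 757 in WT Quad, 664 to 754 in KO TA and 721 to 814 in WT TA, 559 to 644 in KO Gastroc and 634 to 736 in WT Gastroc, and 772 to 879 in KO Dia and 766 to 960 in WT Dia. Macrophage markers (4 of 5 measured, none at 0) were at 127 to 175 CPM in KO Quad and 150 to 181 in WT Quad, 116 to 155 in KO TA and 132 to 183 in WT TA, 117 to 155 in KO Gastroc and 135 to 186 in WT Gastroc, and 169 to 216 in KO Dia and 183 to 206 in WT Dia. For both lists the KO median lay below the WT median in each muscle. Their part in the levels of Acvr1b and Fstl3 was not tested.

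The windows upstream of the members that rose in the joint fit, in the same notation, share few of these letters.
Fstl3 (chr10:79777024-79777273, plus strand): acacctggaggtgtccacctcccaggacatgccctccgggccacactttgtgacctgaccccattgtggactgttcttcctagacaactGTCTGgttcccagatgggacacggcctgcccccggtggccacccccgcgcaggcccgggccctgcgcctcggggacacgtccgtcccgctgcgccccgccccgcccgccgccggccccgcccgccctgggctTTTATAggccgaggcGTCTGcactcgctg
Acvr1b (chr15:101173822-101174071, plus strand): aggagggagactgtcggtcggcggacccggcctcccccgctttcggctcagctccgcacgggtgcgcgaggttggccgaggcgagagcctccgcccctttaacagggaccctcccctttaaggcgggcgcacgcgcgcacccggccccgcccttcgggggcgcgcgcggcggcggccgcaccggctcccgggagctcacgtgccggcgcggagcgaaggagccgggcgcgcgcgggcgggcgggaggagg
Fstl3 has TATAAA on the opposite strand at -29 and CAGAC on the opposite strand (GTCTG) at -161 and -14. Its 3 E boxes begin at -249, -166 and -151, and the one at -166 shares its last base with the GTCTG at -161. Acvr1b has none of the 3 motifs in capitals and a single E box at -54. The Fstl3 window is 71.2% and the Acvr1b window 78.8% G and C.

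Neither type II receptor passed the genotype test in any muscle. Acvr2a (chromosome 2, 48814109 to 48903269, plus strand) ran from 48.8 to 101 CPM in KO Quad (median 63.1) against 49.6 to 101 in WT Quad (81.7), and from 44.1 to 115 in KO TA (68.6) against 48.3 to 99.3 in WT TA (83.5). In Gastroc it ran from 49.3 to 100 CPM in KO (median 68.8) and from 60.2 to 110 in WT (80.7), and in Dia from 39.1 to 71.4 in KO (54.2) and from 39.0 to 69.9 in WT (58.2). Its spread lay within the groups: KO columns 2 and 5 held the highest KO levels in all 4 muscles and column 4 the lowest in TA, Quad and Dia. The log2 changes were -0.13 ± 0.20, -0.03 ± 0.22, -0.23 ± 0.18 and -0.02 ± 0.17 in Quad, TA, Gastroc and Dia. Acvr2b (chromosome 9, 119402444 to 119433501, plus strand), the receptor to which myostatin binds most strongly, stayed between 1.23 and 3.40 CPM in KO libraries and 1.28 and 3.32 CPM in WT libraries, with 14 to 69 counts. Its changes were 0.03 ± 0.24, 0.24 ± 0.19, 0.07 ± 0.23 and -0.29 ± 0.18 in the same order, and in Dia all 6 KO libraries (1.32 to 1.92 CPM) lay below the WT median of 1.95 CPM (adjusted p = 0.9996).

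Smad7 (chromosome 18, 75367529 to 75395935, plus strand), whose product blocks and degrades the activated receptors, did not pass either. It ran from 15.5 to 22.6 CPM in KO Quad (median 18) against 15.4 to 25.7 in WT Quad (17.5), and from 14.1 to 18.6 in KO TA (14.9) against 13.7 to 24.2 in WT TA (15.8). In Gastroc it ran from 12.2 to 16.0 CPM in KO (median 13.0) and from 10.2 to 15.3 in WT (13.6). In Dia it ran from 13.5 to 22.8 CPM in KO (median 20.6) and from 14.3 to 19.9 in WT (16.6), with 4 of 6 KO libraries above the highest WT library and 1 below the lowest. The log2 change in Dia was 0.22 ± 0.13 (adjusted p = 0.9996), and the others were -0.03 ± 0.13, -0.13 ± 0.14 and 0.00 ± 0.11 in Quad, TA and Gastroc.

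**Figure D3:**
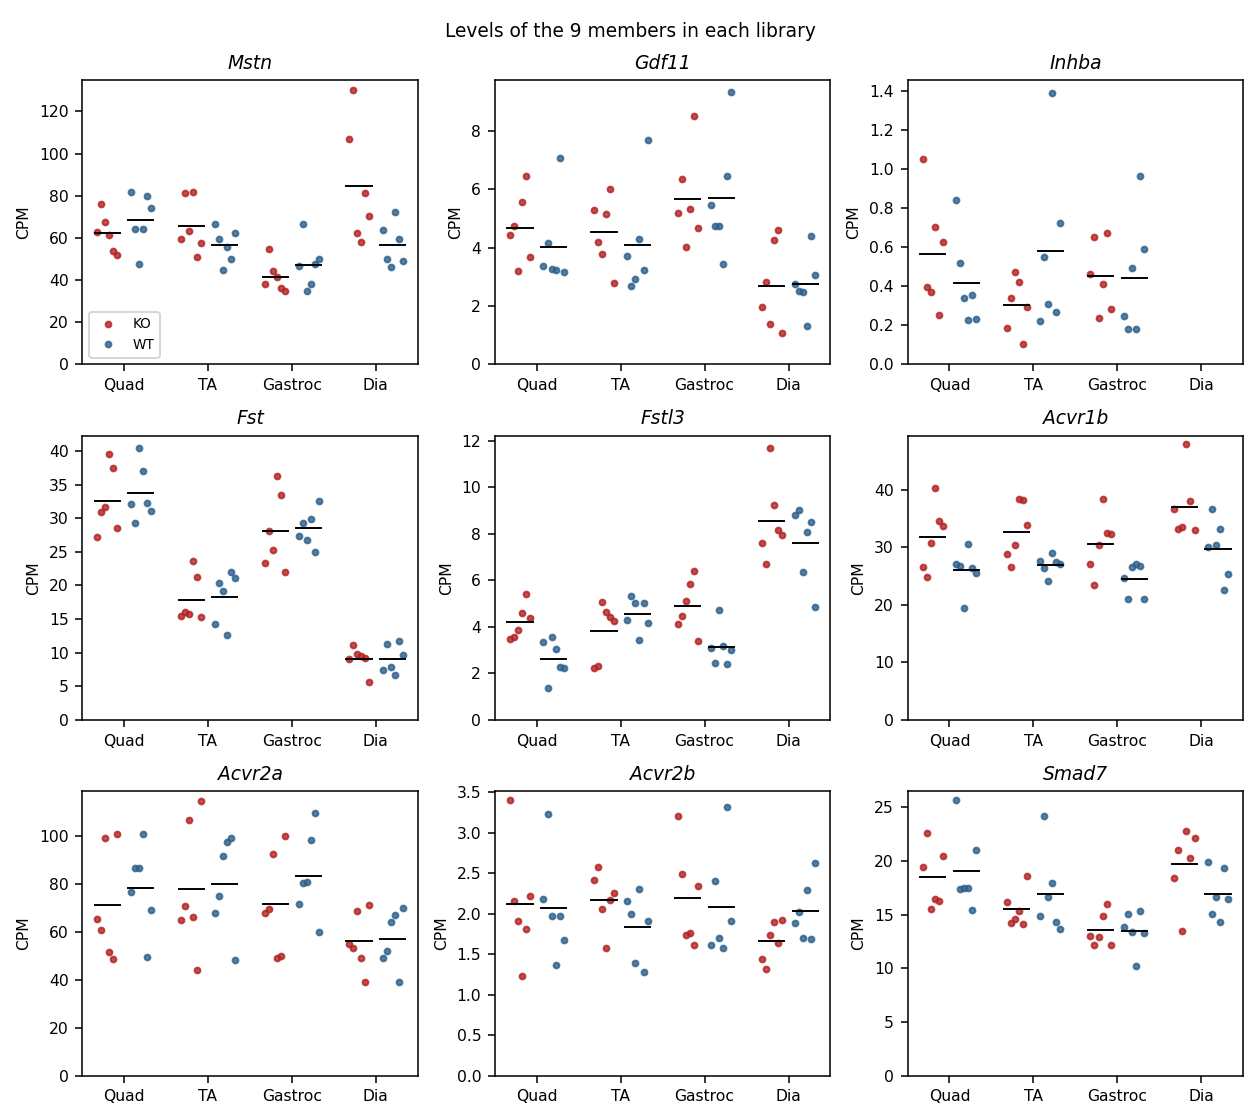
Level of each of the 9 members in each library (CPM, linear axes from 0), KO (red) left of WT (blue) in each muscle, points in column order 0 to 5 and a line at the mean of 6. Fst is lowest and Fstl3 highest in Dia in both genotypes, and the 2 highest Mstn values, 107 and 130 CPM, are KO columns 0 and 1 of Dia.

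The differences between Dia and limb were larger, and were largest for the inhibitors. In Dia, Fst was lower and Fstl3 higher than in the limb muscles, in KO and in WT animals. Fst ran from 5.60 to 11.1 CPM in KO Dia (median 9.35), against 15.3 to 39.6 CPM in the 18 KO limb libraries (26.2), and from 6.68 to 11.8 in WT Dia (8.72) against 12.7 to 40.5 in the 18 WT limb libraries (28.4). No Dia library reached the lowest limb library. The log2 difference of Dia from the mean of the limb muscles was -1.49 ± 0.14 in KO and -1.50 ± 0.14 in WT (adjusted p = 7.48e-13 and 5.19e-13, edgeR, joint fit of 48 libraries). Fstl3 ran from 6.71 to 11.7 CPM in KO Dia (median 8.06), against 2.22 to 6.42 in KO limb (4.40), and from 4.85 to 9.02 in WT Dia (8.30) against 1.38 to 5.32 in WT limb (3.27). All 6 KO Dia and 5 of 6 WT Dia libraries were above all limb libraries of their genotype. The differences of Fstl3 were 0.99 ± 0.15 in KO and 1.19 ± 0.16 in WT (adjusted p = 5.50e-07 and 1.35e-08).

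Gdf11 was also lower in Dia, by -0.86 ± 0.25 in KO and -0.72 ± 0.25 in WT (adjusted p = 0.00368 and 0.0138), with 3 of 6 Dia libraries of either genotype below all limb libraries. Acvr2a fell below the limb level in WT Dia, by -0.50 ± 0.18 (adjusted p = 0.0181), and had -0.39 ± 0.18 in KO Dia (adjusted p = 0.0662). Leaving out WT column 1 or 4 of every muscle ended the WT call of Acvr2a (adjusted p = 0.0540 and 0.0802). Mstn and Smad7 passed as higher in KO Dia and did not pass in WT Dia. Mstn differed by 0.61 ± 0.13 in KO (adjusted p = 8.62e-05) and -0.00 ± 0.14 in WT (adjusted p = 0.9998). Without KO columns 0 and 1 of Dia the KO value of Mstn was 0.30 (adjusted p = 0.0586), and without these columns of every muscle 0.37 (adjusted p = 0.0216). Smad7 differed by 0.32 ± 0.11 in KO (adjusted p = 0.00866; 0.0508 without KO column 3) and 0.05 ± 0.11 in WT (adjusted p = 0.698). Neither passed the joint test of unequal genotype effects (edgeR, unadjusted p = 0.00591 for Mstn and 0.309 for Smad7). The KO and WT values of Mstn and Smad7 are therefore not shown to differ, nor are they shown to be equal. That test took in all 4 muscles rather than Dia against limb, and its p-values may be too large. No contrast of Dia against limb between the genotypes was fitted. Acvr1b had 0.22 ± 0.10 in KO and 0.21 ± 0.10 in WT (adjusted p = 0.0502 and 0.0735), and Acvr2b -0.37 ± 0.18 in KO and 0.03 ± 0.17 in WT (adjusted p = 0.0793 and 0.907). In a fit of the 24 KO libraries with the column number as a block, Acvr1b (0.22 ± 0.05, adjusted p = 0.000192, edgeR) and Acvr2a (-0.36 ± 0.06, adjusted p = 1.04e-05) also passed, and Acvr2b had -0.34 ± 0.15 (adjusted p = 0.0505). The same 24 libraries without the block gave adjusted p = 0.0802, 0.108 and 0.0877 for these genes. No block was fitted in WT, so the WT values have no blocked counterpart.

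In count, 3 of 8 members were higher and 2 lower in KO Dia, and 1 was higher and 3 were lower in WT Dia. Such calls were common: 28.1% of all genes were higher and 25.0% lower in KO Dia (53.1% in all), and 27.8% higher and 25.1% lower in WT Dia (52.9% in all). The members' shares are therefore near the background. Markers of other cells differed between these muscles too. Liver genes summed to 48.7 to 8810 CPM in KO Dia and 0.311 to 77.6 in KO limb, and to 316 to 4890 in WT Dia and 0.923 to 21.1 in WT limb. Erythroid genes summed to 364 to 746 CPM in KO Dia and 126 to 248 in KO limb, and to 382 to 582 in WT Dia and 98.9 to 278 in WT limb. Tendon genes summed to 434 to 647 CPM in KO Dia and 989 to 1970 in KO limb, and to 565 to 702 in WT Dia and 549 to 1790 in WT limb. Mesothelium genes summed to 260 to 473 CPM in KO Dia (5 of 5 measured) and 1.18 to 3.83 CPM in KO limb (2 or 3 measured), and to 270 to 442 in WT Dia and 1.14 to 2.43 in WT limb. Muscle progenitor genes summed to 47.7 to 79.8 CPM in KO Dia and 96.5 to 176 in KO limb, and to 44.7 to 74.9 in WT Dia and 102 to 138 in WT limb. Their part in the differences of the members was not tested.

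**Figure D4:**
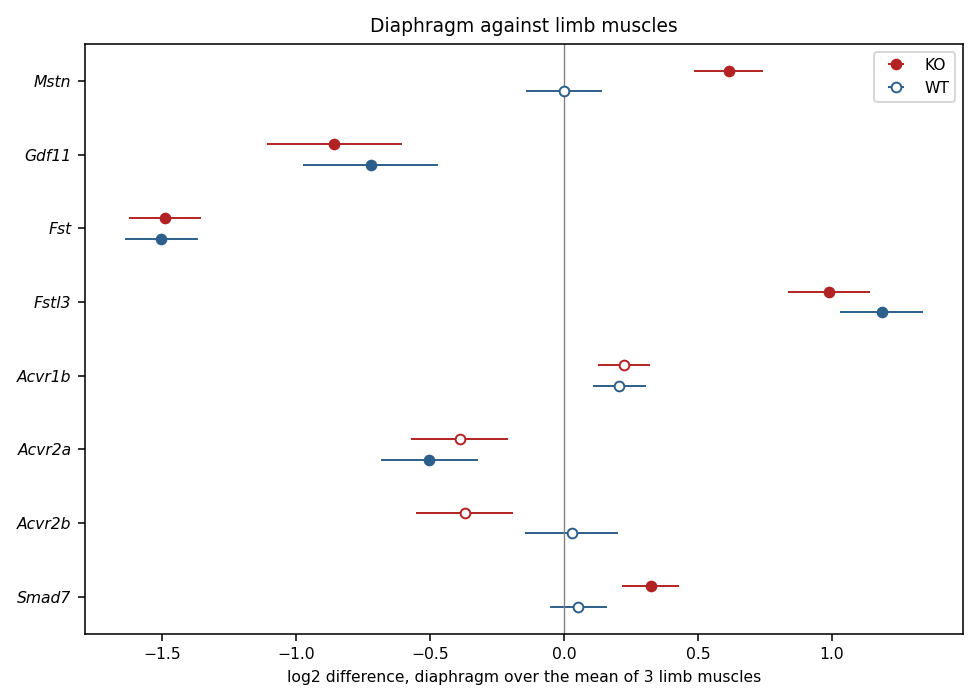
Log2 difference between Dia and the mean of Quad, TA and Gastroc for 8 members, KO above WT, with bars of 1 SE from the joint fit of 48 libraries; filled points have an adjusted p under 0.05. Fst lies near -1.50 and Fstl3 near 1.00 or above in both genotypes, while the points of Mstn lie apart (0.61 in KO, -0.00 in WT).

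The 4 WT muscles were also set in order for each member. Libraries were not paired here, although WT libraries varied together between muscles. The p-values may therefore be too large, and a pair that missed the threshold is not shown to be equal. A WT column number does not mark 1 animal in all muscles, so leaving out a column number can remove libraries of different animals. A joint F test of the WT groups passed for 5 of 8 members (51.4% of all genes): Fst (adjusted p = 1.31e-13), Fstl3 (3.01e-08), Smad7 (0.0126), Gdf11 (0.0223) and Mstn (0.0407). Those of Mstn, Gdf11 and Smad7 depended on single columns, with adjusted p up to 0.160 for Mstn without WT column 0, 3, 4 or 5, up to 0.0642 for Gdf11 without WT column 0, 1 or 5, and up to 0.0626 for Smad7 without WT column 0 or 3. Fst averaged 33.7 ± 4.21 CPM in Quad, 28.5 ± 2.63 in Gastroc, 18.3 ± 3.86 in TA and 9.11 ± 2.12 in Dia (SD, n = 6 each). All neighbours in this order differed except Quad and Gastroc (log2 0.24, adjusted p = 0.347). Quad against TA gave 0.88 (adjusted p = 0.000126), TA against Gastroc -0.64 (adjusted p = 0.0014) and TA against Dia 1.00 (adjusted p = 9.6e-07). Fstl3 ran nearly the other way, with 7.61 ± 1.65 CPM in Dia, 4.55 ± 0.714 in TA, 3.15 ± 0.846 in Gastroc and 2.64 ± 0.823 in Quad. Its level in TA was below that in Dia (TA against Dia -0.75, adjusted p = 0.00227). TA and Gastroc did not differ past the threshold (0.53, adjusted p = 0.0734), nor did Quad and Gastroc (-0.25, adjusted p = 0.548), while Quad was below TA (-0.79, adjusted p = 0.0392). That call ended without KO column 3 or WT column 0, 1, 4 or 5 of every muscle (adjusted p = 0.0512 to 0.309).

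For the other members most neighbouring pairs did not pass, in the same unpaired tests. Mstn averaged 68.6 ± 12.8 CPM in Quad, 56.8 ± 10.1 in Dia, 56.4 ± 7.95 in TA and 47.2 ± 11.2 in Gastroc, and of the 6 pairs only Quad and Gastroc passed (0.54 ± 0.16, adjusted p = 0.0240). Gdf11 averaged 5.70 ± 2.04 CPM in Gastroc, 4.09 ± 1.86 in TA, 4.04 ± 1.53 in Quad and 2.76 ± 1.00 in Dia, and only Gastroc and Dia passed (1.04 ± 0.29, adjusted p = 0.00261). Smad7 averaged 19.1 ± 3.71 CPM in Quad, 17.0 ± 2.25 in Dia, 16.9 ± 3.90 in TA and 13.5 ± 1.81 in Gastroc, and Quad against Gastroc (0.49 ± 0.13, adjusted p = 0.00821) and Gastroc against Dia (-0.33 ± 0.13, adjusted p = 0.0345) passed. Acvr2a (0.56 ± 0.22, adjusted p = 0.0287) and Acvr1b (-0.28 ± 0.12, adjusted p = 0.0486) passed only for Gastroc against Dia, and Acvr2b in no pair. Most of these calls ended when 1 column number was left out of every muscle, which in WT need not be 1 animal. That of Mstn ended without WT column 0, 3, 4 or 5 (adjusted p = 0.0702 to 0.112), and that of Smad7 for Quad and Gastroc without WT column 0 (0.0709). For Gastroc against Dia, Smad7 missed 0.05 without WT column 0, 2, 3, 4 or 5 (0.0571 to 0.0934), Acvr2a without WT column 0, 1, 3 or 4 (0.0543 to 0.171) and Acvr1b without KO column 0, 2, 4 or 5 or WT column 0, 1, 2, 3 or 5 (0.0501 to 0.307). Acvr1b also missed it with RLE scaling, without the low-count filter and in DESeq2 (0.0549, 0.0565 and 0.0525). Other pairs passed without a column: Smad7 for TA and Gastroc (0.0463) and Gdf11 for TA and Dia (0.0381) without WT column 4, Mstn for Gastroc and Dia without WT column 1 (0.0455), and Acvr2a for TA and Dia without KO column 4 or 5 or WT column 5 (0.0199 to 0.0479). Over all genes 1.2% passed between Quad and TA, 10.8% between Quad and Gastroc, 15.0% between TA and Gastroc, 39.7% between Quad and Dia, 40.7% between TA and Dia and 52.4% between Gastroc and Dia.

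Ratios of inhibitor to ligand transcripts also differed between the muscles. The level of Fst per exonic kilobase relative to that of Mstn in the same library had medians of 0.585 in KO Quad and 0.502 in WT Quad, 0.301 in KO TA and 0.392 in WT TA, 0.715 in KO Gastroc and 0.711 in WT Gastroc, and 0.114 in KO Dia and 0.210 in WT Dia. It ran from 0.0914 to 0.187 in KO Dia and from 0.106 to 0.257 in WT Dia, and reached 1.06 at most in KO Gastroc. Relative to Fstl3, Fst stood at 6.85 to 9.10 in KO Quad (median 8.35) and 10 to 22.1 in WT Quad (13.6), 2 ranges that did not overlap. In Gastroc it stood at 5.17 to 6.78 in KO (6.22) and 5.92 to 12.5 in WT (10.3), in TA at 3.25 to 7.26 in KO (5.17) and 3.48 to 5.31 in WT (4.00). In Dia the 2 inhibitors were at nearly equal levels, with ratios of 0.738 to 1.72 in KO and 0.864 to 2.08 in WT. Fstl3 had few counts, 40 to 129 per library in KO Quad and 24 to 63 in WT Quad. These ratios were chosen with the levels known and are given without a test, and how many other ratios separate the groups was not counted.

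**Figure D5:**
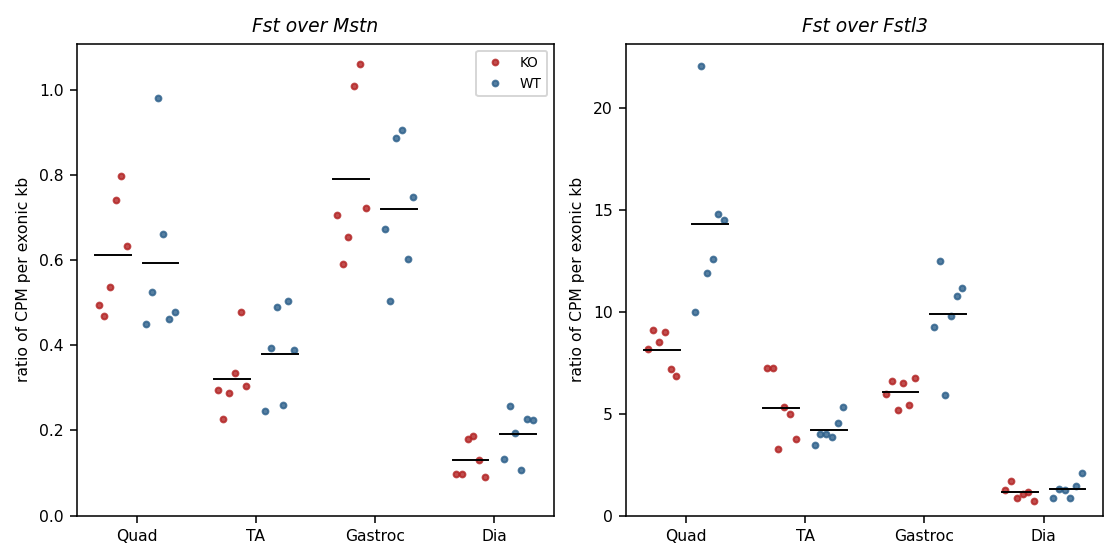
Ratio of the level of Fst per exonic kilobase to that of Mstn (left) and of Fstl3 (right) in each library, KO (red) left of WT (blue), with a line at the mean of 6 (linear axes from 0). Both ratios are lowest in Dia, and for Fst over Fstl3 in Quad all KO libraries (6.85 to 9.10) lie below all WT libraries (10 to 22.1).

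Other genes of the pathway showed 0 calls between KO and WT in any single muscle, over 6 lists of 68 genes, not all of them tested. Calls were rare among all genes too: 0.0% passed in Quad, 0.0973% in TA, 0.157% in Gastroc and 0.0069% in Dia. In the joint fit of 48 libraries 0 of 6 tested ligands passed in edgeR, and 0 had an unadjusted p under 0.05. Over all genes 4.71% rose and 2.45% fell in this fit (7.15% in all), and 14 genes in all passed when the columns were summed, 6 against 6. Libraries of different muscles varied together, so the p-values of the joint fit are too small for the genes below as well. Of the 10 tested extracellular inhibitors and maturation factors, 3 fell and 0 rose: Fstl1, a distant follistatin relative (-0.15 ± 0.03, adjusted p = 0.00412), Bmp1, a protease that frees myostatin from its propeptide (-0.12 ± 0.03, adjusted p = 0.0109), and Dcn, a matrix proteoglycan that binds TGF-beta and myostatin (-0.15 ± 0.04, adjusted p = 0.0222). Of 4 receptors Tgfbr2 fell (-0.09 ± 0.03, adjusted p = 0.0347), and of 10 SMADs and their regulators 0 passed. Of 9 genes known as SMAD2/3 targets 1 rose, Ctgf (0.63 ± 0.12, adjusted p = 0.000738), a matricellular protein gene that is also induced by stretch and YAP. In the BMP arm 2 of 21 rose, Id1, a target of BMP signalling (0.25 ± 0.06, adjusted p = 0.0102), and the BMP inhibitor Chrd (0.18 ± 0.05, adjusted p = 0.0167). In that list 3 fell, the ligand Bmp7 (-0.40 ± 0.09, adjusted p = 0.00314), its receptor Bmpr1a (-0.18 ± 0.05, adjusted p = 0.0368) and the inhibitor Nog (-0.32 ± 0.10, adjusted p = 0.0469). Median log2 changes of the lists lay between -0.04 and 0.04, beside 0.00 over all genes. Dcn is also a fibroblast marker. The 6 fibroblast markers (none at 0) summed to medians of 14900 CPM in KO Quad and 16800 in WT Quad, 16500 in KO TA and 20400 in WT TA, 21300 in KO Gastroc and 23000 in WT Gastroc, and 10400 in KO Dia and 12500 in WT Dia. They ran from 12700 to 22700 CPM in KO Quad and 13000 to 19600 in WT Quad, 13700 to 27900 in KO TA and 16600 to 23100 in WT TA, 13600 to 32700 in KO Gastroc and 13000 to 23500 in WT Gastroc, and 8660 to 14600 in KO Dia and 10800 to 13000 in WT Dia. KO columns 0 and 1 were the highest of their group in each muscle. Their part in the lower level of Dcn and of the other genes that fell was not tested.

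Between Dia and limb the same lists held many calls, as did all genes. Of the 6 tested ligands 2 were higher and 3 lower in KO Dia, where 28.1% of all genes were higher and 25.0% lower, and 2 and 3 in WT Dia, where 27.8% were higher and 25.1% lower. Inhbb, the activin B subunit, was higher by 1.85 ± 0.21 in KO and 1.65 ± 0.22 in WT (adjusted p = 4.6e-10 and 1.34e-08, edgeR), and Tgfb1 by 0.48 ± 0.10 and 0.46 ± 0.10 in KO and WT. Tgfb2 was lower, by -0.81 ± 0.11 in KO and -0.95 ± 0.11 in WT, and Inha, the inhibin alpha subunit, by -0.74 ± 0.12 in KO and -0.73 ± 0.12 in WT. Of the 10 extracellular inhibitors and maturation factors 2 were higher and 4 lower in KO Dia, and 4 and 3 in WT Dia. Ltbp4, which stores latent TGF-beta in the matrix, was higher by 0.88 ± 0.08 in KO and 0.91 ± 0.08 in WT. Fstl1 was lower by -0.50 ± 0.06 in KO and -0.59 ± 0.06 in WT, and the proteases Bmp1 and Tll1 were lower as well, Tll1 by -0.76 ± 0.12 in KO and -0.64 ± 0.12 in WT.

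Of the 4 receptors 1 was higher and 1 lower in KO Dia, and 1 and 0 in WT Dia. Bambi, a decoy receptor, was higher in Dia by 0.32 ± 0.10 in KO and 0.27 ± 0.10 in WT. Of the 10 SMADs and regulators 2 were higher and 3 lower in either genotype. Ski, a repressor of SMAD targets, was lower by -0.30 ± 0.04 in KO and -0.31 ± 0.04 in WT, and its relative Skil was higher by 0.49 ± 0.12 in KO and 0.31 ± 0.12 in WT. Of the 9 SMAD2/3 targets 3 were higher and 5 lower in either genotype. Over all genes 28.1% were higher and 25.0% lower in KO Dia, and 27.8% and 25.1% in WT Dia. The CCN family gene Nov was lower by -1.43 ± 0.12 in KO and -1.53 ± 0.12 in WT, the matrix genes Tgfbi and Col1a1 were lower too, and Pmepa1 was higher by 0.72 ± 0.19 in KO. Col1a1 is also a fibroblast marker. The 6 fibroblast markers summed to 8660 to 14600 CPM in KO Dia and 12700 to 32700 in KO limb. In WT they summed to 10800 to 13000 CPM in Dia and 13000 to 23500 in limb. Their part in these differences was not tested. Of the 21 genes of the BMP arm 6 were higher and 5 lower in KO Dia, and 4 and 7 in WT Dia. Bmp5 was lower by -1.67 ± 0.10 in KO and -1.66 ± 0.10 in WT, and Gdf6 was higher by 1.59 ± 0.16 in KO and 1.84 ± 0.16 in WT. The median log2 difference of the lists lay between -0.44 and 0.12 in KO and between -0.29 and 0.10 in WT, beside 0.01 and 0.00 over all genes.

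Libraries also varied together within the groups. After the group means were removed, the log2 levels of Gdf11 and Acvr2a had the strongest relation of the 28 pairs of members, Pearson r = -0.73 over the 48 libraries. Acvr2a resembled Tnpo1 (r = 0.96), Avl9 and Mier3 (0.96 each), and Gdf11 resembled Gja5 (0.89), Mex3a (0.87) and Gimap4 (0.86). The genes most like Mstn were Stbd1 (0.79), Cap2 (0.76) and Eno3 (0.75), those most like Acvr1b Lims2 (0.75), Rere (0.74) and Mylk2 (0.74), and those most like Fst Plod2 (0.75), St3gal1 (0.73) and Tbccd1 (0.71). Fstl3 resembled Ust (0.74), Dnm3 (0.73) and Arl8a (0.73), Acvr2b Lynx1 (0.72), Wsb2 (0.71) and Sertad2 (0.70), and Smad7 Tyk2, Zfp608 (0.57 each) and Xirp1 (0.54). Genes in a library share its depth and RNA, and muscles of 1 animal may be among the 48 points, so these are descriptions without a test.

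In the authors' deposited table, whose ratios are from DESeq2, no member passed 0.05 in any muscle. Its lowest adjusted p for Fstl3 was 0.114 in Quad (log2 0.41) and 0.147 in Gastroc (0.39). For Acvr1b the authors' deposited table gave 0.23, 0.24, 0.26 and 0.26 in Quad, TA, Gastroc and Dia, with adjusted p from 0.272 to 0.721, and for Mstn in Dia 0.39 (adjusted p = 0.286). Its ratios are smaller than those above.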

How the data were processed

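The authors deposited one table per muscle comparison, made with USeq on mm10 per the file headers: counts are exon alignments per gene with both mates taken as 1 count, unnormalized. Those tables also hold the authors' log2 ratios, from DESeq2, and their adjusted p-values on a transformed scale, a score that was turned back into p here. Picard and mm10 are in the submitters' processing notes, and no aligner is given in the sources used here. The authors left out genes with fewer than 10 counts and genes flagged for very many counts. Another 96 columns of per-sample values were not used.

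Each muscle was fitted on its 12 libraries in edgeR 4.0.16 under R 4.3.3: filterByExpr, TMM, the quasi-likelihood F test, and Benjamini-Hochberg adjustment over all genes tested, threshold 0.05. The joint fit took all 48 libraries and the 15192 genes found in every table, of which 15090 passed the filter. An SE was obtained as the absolute log2 change divided by the square root of F. CPM were scaled by TMM over the 48 libraries, and divided by exon length for comparisons between genes. Scripts were tested on simulated data. Alternatives were another scaling, no low-count filter, DESeq2 1.42.0, omission of columns, a sex covariate and a common fit; the summed columns, the limb muscles alone, the omission of Dia columns, the KO column block and the alternatives for pairs of WT muscles were chosen after seeing the data. The block was used in KO alone, where between each 2 muscles a library correlated best with that of its own number (36 of 36 cases, against 17 of 36 in WT). Pairs of libraries within a group differed by 5.33 to 78.7 in chi-square per degree of freedom (120 pairs), so no library was a copy of another. Every member is named; so are up to 4 other pathway genes per list that passed 0.05 and in the BMP arm also Nog, added after its value was seen, and the 3 genes most correlated with each member. The members and lists were chosen with earlier results of these data known.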

Additional observations from a re-analysis of the deposited data

Results flagged for a closer look

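In 5 of the 70 groups of 6 libraries examined, 1 library lay far from the other 5, with a gap to its nearest neighbour above Dixon's limit for 6 values; chance gives this in about 1 in 20 groups. Acvr1b was at 47.9 CPM in KO column 3 of Dia, and the next highest KO Dia library was at 38.0 CPM. Fst was at 5.60 CPM in KO column 5 of Dia, below the other KO Dia libraries. Gdf11 was at 7.07 CPM in WT column 4 of Quad and at 7.71 CPM in WT column 5 of TA, above the other WT libraries of those muscles. Fstl3 was at 4.74 CPM in WT column 2 of Gastroc, above the other WT Gastroc libraries. Without KO column 3 the change of Acvr1b in Dia was 0.23 (log2).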

How the results depend on the processing

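No paired analysis was possible because, for KO against WT, the count columns carry no number that ties a KO to a WT library. Within KO, a fit of Dia against limb with the column number as a replicate block called 7 members and 10110 genes, against 5 and 7344 without the block and 5 and 8016 in the joint fit. Another scaling (RLE), no low-count filter and DESeq2 left the counts of members called as they were, except that Gastroc against Dia in WT had 5 in place of 6 in each. DESeq2 gave no adjusted p to 3 of 8 members for unequal effects. Over all genes, DESeq2 called 71 in Quad, 117 in TA, 94 in Gastroc and 29 in Dia, and 8 as unequal between muscles. Without the filter 7 genes passed in Quad. A sex covariate gave 7, 8 and 2 in Quad, TA and Dia. One fit of all 48 libraries gave 16, 36 and 30 in Quad, Gastroc and Dia. Without KO columns 0 and 1 the counts were 133, 219, 108 and 72 in Quad, TA, Gastroc and Dia, 5 for unequal effects and 4575 for the average over the muscles, and 1 member, Acvr1b, passed in TA. For the average over the muscles, 0 members and 14 genes passed with summed columns, and 1 member passed in the limb muscles alone. Leaving out each column in turn gave 0 to 2 genes in Quad, 4 to 26 in TA, 4 to 29 in Gastroc and 0 to 4 in Dia. It gave 1 to 2 members and 551 to 1806 genes for the average, 0 to 2 genes for unequal effects, and 2 to 5 members for the unequal WT muscles. Between WT muscles it gave 1 to 2 members and 114 to 201 genes for Quad and TA, 0 to 2 and 1081 to 1732 for Quad and Gastroc, 1 to 2 members for TA and Gastroc, 2 for Quad and Dia, 2 to 3 for TA and Dia, and 3 to 6 for Gastroc and Dia.

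Of 1965 member values under an alternative, 111 changed sign, all of them short of the threshold both ways. Without KO columns 0 and 1 the log2 changes became 0.0371 for Fst and -0.188 for Acvr2b in Quad, 0.0667 for Fst, 0.0248 for Fstl3 and 0.0579 for Acvr2a in TA, -0.000268 for Gdf11, 0.0398 for Fst and -0.178 for Acvr2b in Gastroc, and 0.0719 for Gdf11 and 0.0118 for Acvr2a in Dia. The averages over the muscles became -0.0171 for Mstn, 0.00663 for Fst and -0.107 for Acvr2b. In the limb muscles alone they were -0.0370 for Mstn and -0.0574 for Smad7. In Gastroc DESeq2 gave -0.00191 for Gdf11 and -0.000268 for Smad7, and the sex covariate -0.0165 for Smad7. Without WT column 1 of Dia the WT difference of Mstn between Dia and limb was 0.0340. Another 92 sign changes, in 29 results, came from leaving out 1 column. In Quad these ranges were Fst -0.100 to 0.0223, Acvr2b -0.133 to 0.204, Smad7 -0.0975 to 0.0676. In TA these ranges were Fst -0.120 to 0.0380, Acvr2a -0.181 to 0.0889, Smad7 -0.188 to 0.00596. In Gastroc these ranges were Gdf11 -0.149 to 0.193, Fst -0.109 to 0.0384, Acvr2b -0.0838 to 0.249, Smad7 -0.0670 to 0.0425. In Dia these ranges were Gdf11 -0.254 to 0.159, Fst -0.0864 to 0.0920, Acvr2a -0.108 to 0.0638. In the joint fit these ranges were Gdf11 -0.0666 to 0.199, Fst -0.0929 to 0.0332, Acvr2b -0.0681 to 0.0705, Smad7 -0.0179 to 0.0522. In WT Dia against limb these ranges were Mstn -0.105 to 0.0747, Acvr2b -0.0789 to 0.113, Smad7 -0.00727 to 0.133. In WT Quad against TA these ranges were Gdf11 -0.318 to 0.329, Acvr2a -0.105 to 0.146. In WT Quad against Gastroc these ranges were Acvr2a -0.144 to 0.105, Acvr2b -0.151 to 0.170. In WT Quad against Dia these ranges were Acvr2b -0.160 to 0.157. In WT TA against Gastroc these ranges were Acvr2b -0.329 to 0.0827. In WT TA against Dia these ranges were Mstn -0.0753 to 0.0754, Smad7 -0.164 to 0.0838. In WT Gastroc against Dia these ranges were Acvr2b -0.186 to 0.149. The cause was not tested. With 2 to 21 counts per limb library, differences in Inhba were not detectable.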
